A study of Fukomys damarensis with 47 samples.

Results

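The estradiol response of long bone cells was measured in 4 queens of the Damaraland mole-rat (Fukomys damarensis), a social rodent in which 1 female breeds in each colony. A queen was included when her long bones had given both an estradiol and a vehicle library, so that each treated culture had a control from the same animal. These were 8 of the 47 libraries of the series. The other queen with cultured long bones, DVF007, had only a vehicle library from the long bones and formed no pair. The queens were MAF006 (1132 days old), NOF009 (1075 days), WAF014 (1005 days) and LAF007 (1004 days). All were breeding females, their labels named no genetic modification, and the labels of the long bone cultures of an animal differed by the hormone only. Marrow cells from the pooled long bones of each queen were cleared of red blood cells and plated in a medium made for mesenchymal stromal cells of the marrow (bMSCs), which contained fetal bovine serum and basic fibroblast growth factor. Once bMSC clusters were visible, the medium was replaced with medium containing 10 nM estradiol or vehicle, and RNA was collected 24 hr later. The days in culture and the RNA quality of each sample are not given in the labels. Each treatment was represented by 1 library per queen, so the replicate is the animal, and no repeat culture shows how much 2 dishes of the same queen differ without hormone.

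Estradiol is the main estrogen of breeding females. It binds the nuclear estrogen receptors, which act as transcription factors at estrogen response elements or through other DNA-bound factors. In the skeleton it restrains the osteoclasts that resorb bone, prolongs the life of osteoblasts that form it, and at high levels ends long bone growth at the growth plate. bMSCs are the marrow precursors of osteoblasts, adipocytes and chondrocytes, and cultures of plated marrow also hold blood-derived cells such as macrophages.

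The libraries held between 5329563 and 12600390 counts on genes, with the lowest totals in both libraries of MAF006. The 11047 genes with at least 2 CPM (the count of a gene scaled by its library's size) in 25% or more of all 47 libraries were tested. Symbols could be paired with 1137 of them. The estrogen receptor genes ESR1 and ESR2 and the receptor target genes PGR and GREB1 were not among these and are not analysed here. Levels of blood cell and bone matrix genes differed between the queens. The summed level of the 22 tested leukocyte markers was 3545 CPM in the vehicle culture of MAF006 and 3572 CPM in that of NOF009, against 383 CPM in LAF007 and 742 CPM in WAF014. The summed level of the 16 osteoblast and bone matrix genes was lower in the first 2 queens. It was 2613 CPM in MAF006, 4655 CPM in NOF009, 9718 CPM in LAF007 and 9573 CPM in WAF014. THBS1 alone was the largest part of each sum, at 2123, 2632, 7025 and 5784 CPM in the same order. The sums therefore follow this 1 gene in large part. In such bulk RNA, fewer cells of a type and less RNA per cell cannot be told apart. The first principal component of the 8 libraries held 60.1% of the variance. It placed both cultures of MAF006 at 1 end (-109.30 and -101.37) and the 4 cultures of LAF007 and WAF014 at the other (52.99 to 92.76), with those of NOF009 between them (-29.43 and -27.79). It did not separate the treatments. LAF007 and WAF014 were not separated on it. Every culture of LAF007 was closer to either culture of WAF014 than the 2 cultures of LAF007 were to each other (r = 0.875 across genes). The vehicle culture of LAF007 correlated at 0.973 with the estradiol culture of WAF014 and at 0.945 with the vehicle culture. The estradiol culture of LAF007 correlated at 0.947 with the vehicle culture of WAF014 and at 0.898 with the estradiol culture. The 2 cultures of WAF014 correlated at 0.981. The part of days in culture, RNA quality or the labelling of cultures in these matches was not tested, and counts without either queen are given beside the main counts.

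**Figure D1:**
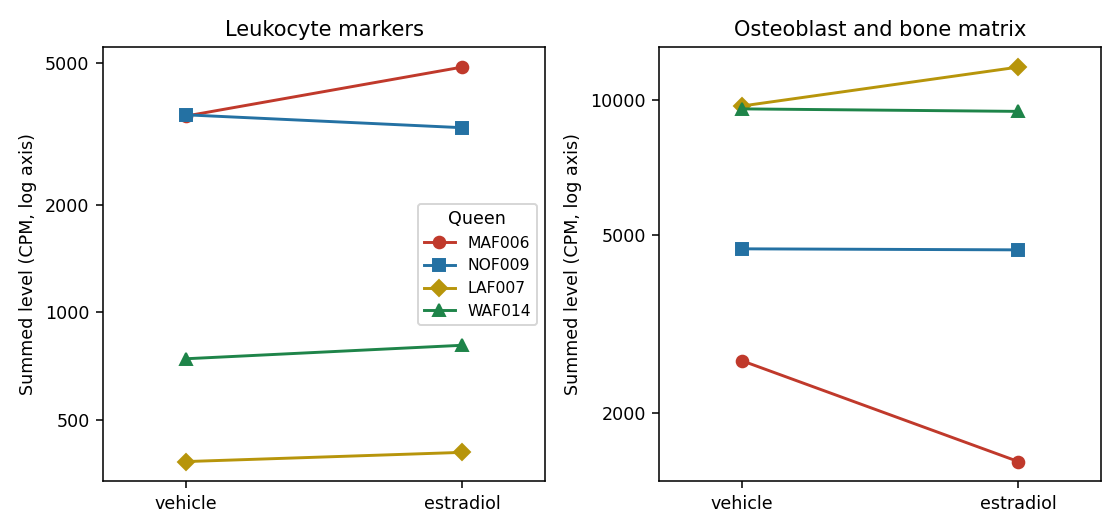
Summed levels (CPM, log axis) of 22 leukocyte markers (left) and 16 osteoblast and bone matrix genes (right) in the vehicle and estradiol culture of each queen, with 1 line per queen. MAF006 and NOF009 lie above LAF007 and WAF014 on the left and below them on the right in both cultures, and with estradiol MAF006 has the highest leukocyte sum (4858 CPM) and the lowest matrix sum (1555 CPM). THBS1 is the largest part of each matrix sum.

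No gene passed the test for an estradiol response shared by the 4 queens. In a quasi-likelihood fit (edgeR) with the animal as a block, 0 genes (0% of 11047) passed a false discovery rate (FDR) of 10%, and 0 genes (0%) passed 20%. The smallest Benjamini-Hochberg adjusted p was 0.975. At an unadjusted p under 0.05, 42 genes (0.38%) were found, of which 37 (0.335%) were higher with estradiol and 5 (0.0453%) lower. A test without any true difference would place about 552 genes there. DESeq2's Wald test found 1 gene at an FDR of 10% and 95 at an unadjusted p under 0.05. The standard error of the log2 fold change had a median of 0.37 over genes. The 95% interval lay wholly within a 2-fold change in either direction for 4471 genes (40.5%), so that for the remaining genes a 2-fold mean change is not excluded by these pairs. The counts depended on single queens. Without WAF014, 14 genes passed an FDR of 10%, all of them higher with estradiol, and 1162 had an unadjusted p under 0.05. Without NOF009 these counts were 1 and 318, without MAF006 they were 0 and 13, and without LAF007 they were 0 and 47. With neither LAF007 nor WAF014, a fit added after the data were seen, they were 2 and 223.

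The size of the difference between the paired cultures varied widely among the queens. The standard deviation over genes of estradiol minus vehicle on the log2 CPM scale was 0.32 in NOF009 and 0.47 in WAF014, against 1.08 in MAF006 and 1.22 in LAF007. The 2 cultures differed by at least 2-fold for 155 genes in NOF009 (1.40%), 513 in WAF014 (4.64%), 3738 in MAF006 (33.8%) and 3584 in LAF007 (32.4%). Correlation across genes between the vehicle and estradiol libraries was 0.989 in NOF009, 0.981 in WAF014, 0.913 in MAF006 and 0.875 in LAF007. For comparison, 6 nonbreeding females (5 helpers living in a colony and 1 solitaire housed alone, 1005 to 1231 days old) had long bone cultures with the same paired treatments. Their standard deviations ran from 0.33 to 1.18. Their mean was 0.64 ± 0.34 (SD, n = 6), and that of the queens in the same normalization was 0.77 ± 0.44 (SD, n = 4), so that the groups differed by less than their own spread (two-sided exact permutation test on the difference of means, p = 0.581).

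The differences did not run the same way in the 4 queens. LAF007 and WAF014, whose vehicle cultures were alike (r = 0.945 across genes), had differences of opposite sign at 9382 of 11047 genes (84.9%), with r = -0.80 across genes. MAF006 leaned the same way as LAF007 (r = 0.43) and against WAF014 (r = -0.38). NOF009 was close to unrelated to the other 3, with r between -0.11 and 0.12. Genes are not independent replicates, and these correlations describe pairs of libraries. Outside the 4 queens, the pattern of LAF007 was closest to that of the nonbreeder WAF011 (r = 0.91), to which WAF014 was opposite (r = -0.79). WAF011 and WAF014 have names that begin with the same letters and were 1006 and 1005 days old. The same holds for the nonbreeder NOF007 (1076 days old) and the queen NOF009 (1075 days old), whose patterns had r = -0.01. MAF006 was opposite to the nonbreeder WEF002 (r = -0.67). In WAF014 the lumbar vertebrae had also been cultured with and without estradiol. In a shared normalization the standard deviation was 0.48 in her long bones and 0.84 in her vertebrae, and the genes moved together (r = 0.75, opposite signs at 17.8% of genes).

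**Figure D2:**
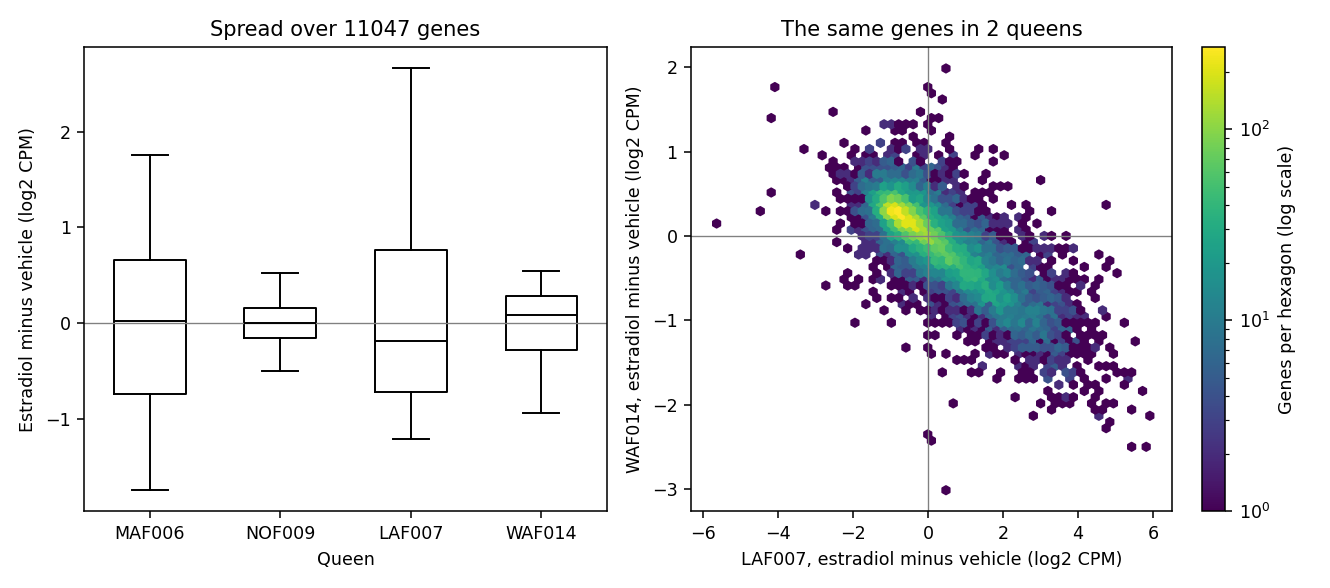
Estradiol minus vehicle (log2 CPM) over 11047 genes in each queen (left, box from the first to the third quartile, whiskers at the 5th and 95th percentiles) and for the same genes in LAF007 against WAF014 (right, colour for genes per hexagon on a log scale). Boxes are narrow in NOF009 and WAF014 and wide in MAF006 and LAF007, and the cloud on the right runs from upper left to lower right (r = -0.80).

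Genes with the opposite signs included structural and secreted proteins of stromal cells. ITGA11, a collagen-binding integrin subunit, was at 426.4 CPM with estradiol and 34.5 CPM with vehicle in LAF007, and at 25.8 and 55.2 CPM in WAF014. In NOF009 it was at 38.5 CPM with estradiol and 51.0 CPM with vehicle, and in MAF006 at 1.99 and 0.946 CPM. It was thus higher with estradiol in LAF007 and MAF006 and lower in the other queens. LTBP1, which holds latent TGF-beta in the matrix, was at 1219 and 438 CPM with estradiol and vehicle in LAF007 and at 512 and 842 CPM in WAF014. In MAF006 it was at 57.4 and 163.3 CPM, and in NOF009 at 665.9 and 565.4 CPM. Ribosomal protein genes moved against ITGA11 and LTBP1 in LAF007 and WAF014, but with ITGA11 in MAF006. All 9 were lower with estradiol in LAF007 (median -0.90 on the log2 scale), and all 9 were higher in WAF014 (median 0.28) and in MAF006 (median 0.42), so that their fitted median was -0.01. Of the 151 tested genes on the lists described here, 126 had opposite signs in LAF007 and WAF014, next to 9382 of all 11047 genes (84.9%). The differences followed expression level in part. The median difference was taken in 5 equal bins of genes by mean level. From the lowest to the highest bin it went from 0.28 to -0.60 in LAF007 and from 0.27 to -0.11 in MAF006. In WAF014 it went from -0.10 to 0.21, while in NOF009 both ends were near 0 (0.0014 and 0.00048). The part of expression level in these opposite patterns was not tested.

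With these patterns, few genes kept 1 sign. Estradiol cultures were higher in 4 of 4 queens at 232 genes (2.1% of 11047) and lower in 4 of 4 at 178 genes (1.61%). None of them differed by at least 2-fold in every queen, and 10 (8 higher and 2 lower) differed by at least 0.5 on the log2 scale in every queen. Of the 151 list genes, PARVG and PPARG were higher in all 4 queens, and PHEX, PDLIM3 and TLR8 were lower in all 4.

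The smallest p-values belonged to genes without a symbol. ENSFDAG00000011386 was at 15.9 CPM with estradiol and 2.05 CPM with vehicle in MAF006, 112.3 and 49.6 CPM in NOF009, 77.9 and 9.61 CPM in LAF007, and 40.3 and 25.9 CPM in WAF014. The estradiol culture was the higher in each queen, although levels overlapped between queens. Its log2 fold change was 1.88 (SE 0.47, edgeR p = 0.00245, adjusted p = 0.975). ENSFDAG00000012821 was also higher in 4 of 4 queens, at 7.59 against 1.73 CPM in MAF006, 23.1 against 12.3 CPM in NOF009, 32.9 against 8.43 CPM in LAF007 and 24.2 against 12.2 CPM in WAF014. Its per-queen differences, from 0.90 to 1.99 on the log2 scale, were the most even of these genes (log2 fold change 1.46, SE 0.38, edgeR p = 0.00287, adjusted p = 0.975).

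ENSFDAG00000002388, named here after its values were seen, had the highest fitted change of all genes tested, 3.49 (SE 0.89, edgeR p = 0.00341, adjusted p = 0.975). It was at 30.3 CPM with estradiol and 0.315 CPM with vehicle in MAF006, at 16.6 and 1.22 CPM in NOF009, at 3.96 and 0.320 CPM in LAF007, and at 0.767 and 0.684 CPM in WAF014. The gene was close to silent in all 4 vehicle cultures, and its level with estradiol was above 3 CPM in 3 queens and near the vehicle level in WAF014. This was the gene that passed an FDR of 10% with DESeq2's test (adjusted p = 0.0205). Lower with estradiol were ENSFDAG00000010290 (log2 fold change -1.20, SE 0.49, edgeR p = 0.0357) and ENSFDAG00000014263 (-0.90, SE 0.38, edgeR p = 0.0406), each lower in 3 of 4 queens and slightly higher in WAF014. The first was at 15.9 against 67.8 CPM in MAF006 but under 1 CPM in all cultures of LAF007 and WAF014.

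**Figure D3:**
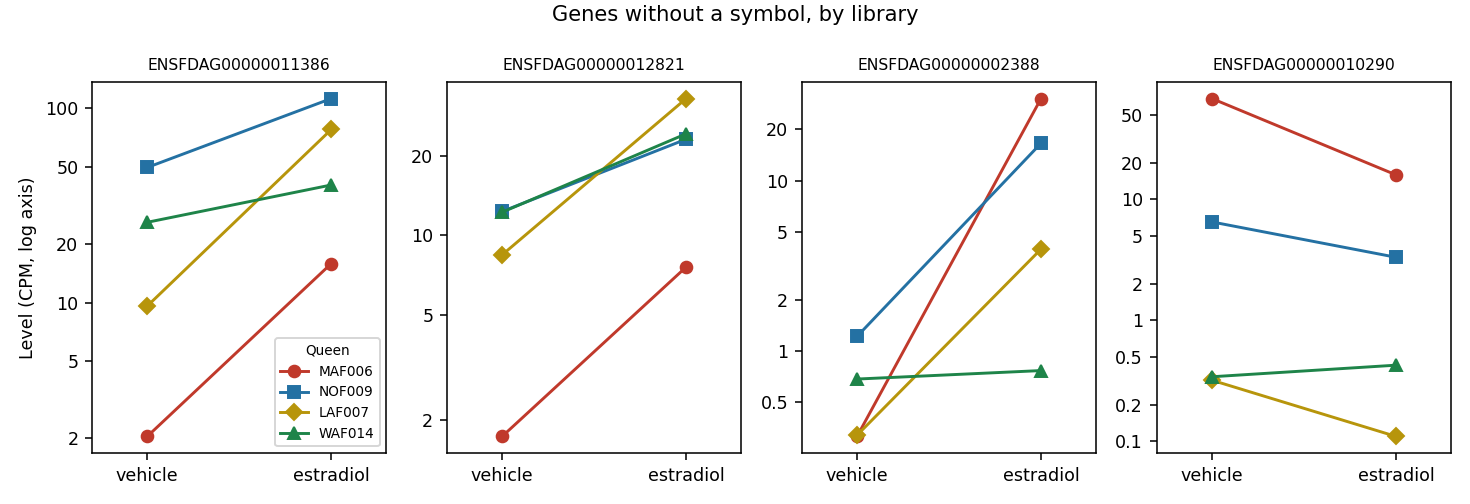
Levels (CPM, log axis) of 4 genes without a symbol in the vehicle and estradiol culture of each queen, with 1 line per queen. ENSFDAG00000011386 and ENSFDAG00000012821 run upward along every line, ENSFDAG00000002388 goes from 0.315 to 30.3 CPM in MAF006 and stays under 1 CPM in WAF014, and ENSFDAG00000010290 is lower with estradiol in all but WAF014.

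These genes could be examined in animals that took no part in the test of the queens. The values of these nonbreeders come from the fit of 20 libraries, which also held those of the queens. The nonbreeders' standard errors and p-values are thus not independent of the queens' libraries. In the 6 nonbreeders with paired long bone cultures, 0 genes (0%) passed an FDR of 10% and 80 genes (0.724%) had an unadjusted p under 0.05. Of the 42 genes found at that level in queens, 8 were found with the same direction in nonbreeders, which is 19.05% of the queens' genes and 10.0% of the nonbreeders'. None was found with opposite directions. Of the 37 higher in queens, 29 were above 0 in nonbreeders, where 57.5% of all genes were, and of the 5 lower, 4 were below 0, where 42.5% of all genes were. ENSFDAG00000011386 had a log2 fold change of 1.36 in nonbreeders (SE 0.47, edgeR unadjusted p = 0.0134, higher in 5 of 6), and ENSFDAG00000012821 had 1.13 (SE 0.31, p = 0.00346 in the same edgeR fit, higher in 5 of 6). ENSFDAG00000002388 had 2.22 (SE 0.91, edgeR unadjusted p = 0.0307, higher in 4 of 6) and ENSFDAG00000010290 had -1.16 (SE 0.36, edgeR unadjusted p = 0.00688, lower in 5 of 6). WAF011, whose pattern was close to that of LAF007 (r = 0.91), had the largest nonbreeder differences for ENSFDAG00000011386 (3.28) and ENSFDAG00000012821 (2.04). WEF002 was below 0 for both (-0.63 and -0.09). The differences between queens and nonbreeders in these 4 responses ranged from -0.04 (SE 0.59) to 1.31 (SE 1.40). ENSFDAG00000014263, in contrast, had 0.13 (SE 0.30) in nonbreeders. None of the 8 shared genes has a symbol here.

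The 16 genes listed here as estrogen targets, which do not include PGR or GREB1, differed in direction between the queens. All 16 target genes described here were tested, and 0 of them had an unadjusted p under 0.05. Their median log2 fold change was 0.05, next to -0.03 over all genes, with 9 above 0 and 7 below, where 46.9% of all genes tested were above 0. The medians by queen were 0.14 in MAF006, -0.06 in NOF009, 0.34 in LAF007 and -0.09 in WAF014, so that the list followed the opposed patterns described above. MYC, a transcription factor that drives growth, was at 18.8 CPM with estradiol and 14.5 CPM with vehicle in MAF006, 12.8 and 13.4 CPM in NOF009, 10.9 and 13.0 CPM in LAF007, and 10.4 and 13.9 CPM in WAF014. No pair differed by more than 0.41 on the log2 scale, and the estradiol culture was the higher in MAF006 only. NRIP1, a corepressor that binds the hormone-bound receptor, was at 53.1 against 263.3 CPM in MAF006 but at 79.2 against 72.6 CPM in NOF009 and 79.7 against 75.8 CPM in WAF014. In LAF007 it was at 47.6 CPM with estradiol and 65.2 CPM with vehicle. PDLIM3, a muscle and cytoskeleton adaptor, was the only member of the list with 1 sign in all 4 queens, with differences of -0.37, -0.58, -0.59 and -0.03 in MAF006, NOF009, LAF007 and WAF014. Of the 9 steroid coregulators and steroid enzymes, 4 were higher and 5 lower (median -0.05), and 0 had an unadjusted p under 0.05.

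**Figure D4:**
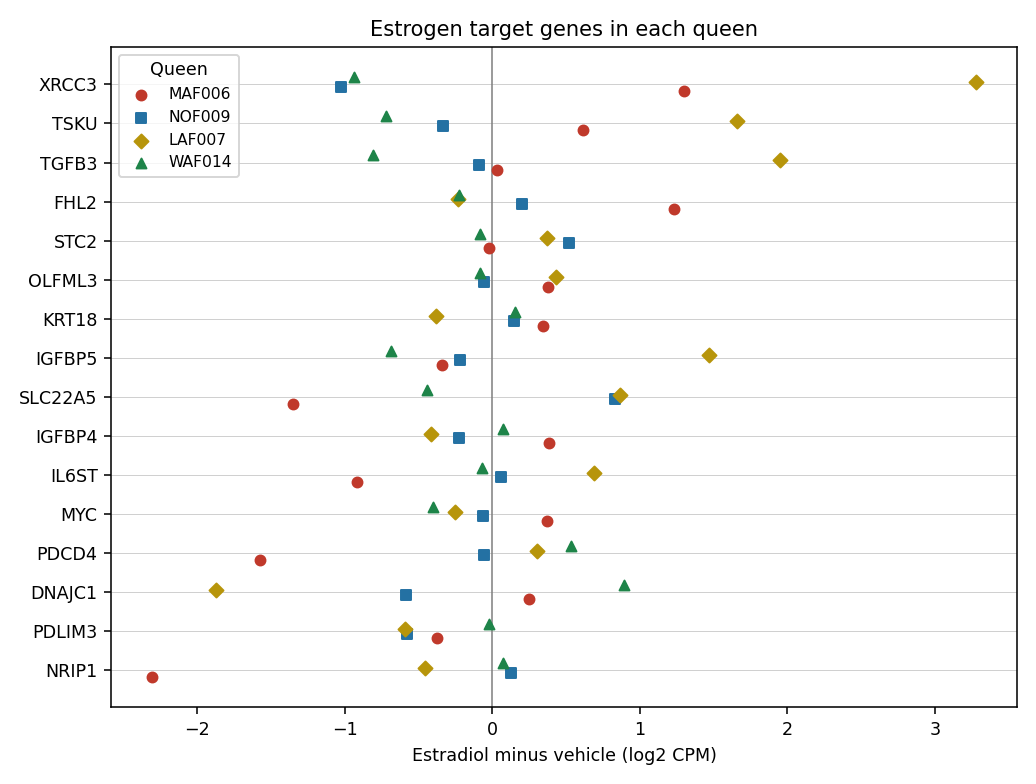
Estradiol minus vehicle (log2 CPM) of 16 estrogen target genes, 1 row per gene ordered by fitted change and 1 symbol per queen. Points of MAF006 and LAF007 spread to both sides of 0, those of NOF009 mostly lie near 0, and WAF014 is often opposite to LAF007, as for TGFB3 (-0.81 and 1.95).

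Genes of bone formation and growth signalling differed by queen. Of 16 osteoblast and bone matrix genes, 12 had a fitted change above 0 and 4 below, where 46.9% of all genes tested were above 0. Their median was 0.15, and none had an unadjusted p under 0.05. By queen, their medians ranged from -0.43 in WAF014 to 1.10 in LAF007. COL1A1, the main collagen chain of bone, was at 40.6 CPM with estradiol and 29.8 CPM with vehicle in MAF006, 222.8 and 240.5 CPM in NOF009, 1368 and 361 CPM in LAF007, and 467 and 626 CPM in WAF014. The estradiol level was thus much the higher in LAF007 only. PHEX, an endopeptidase of bone cells needed for phosphate balance and mineralization, had the smallest p among symbol genes with lower levels. It was at 3.25 against 16.5 CPM in MAF006, 5.69 against 8.39 CPM in NOF009, 4.40 against 9.29 CPM in LAF007 and 6.14 against 6.24 CPM in WAF014. It was lower with estradiol in 4 of 4 queens, but barely so in WAF014 (log2 fold change -0.97, SE 0.46, edgeR p = 0.0585, adjusted p = 0.975).

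Among 15 tested genes of TGF-beta, BMP and IGF signalling, 7 were above 0 and 8 below (median -0.06), where 46.9% of all genes tested were above 0. Again none had an unadjusted p under 0.05. TGFB3, a TGF-beta ligand, was at 218.5 CPM with estradiol and 56.5 CPM with vehicle in LAF007, 64.7 and 113.7 CPM in WAF014, 34.4 and 36.5 CPM in NOF009, and 3.07 and 2.99 CPM in MAF006. TGFBR3, a coreceptor that presents TGF-beta ligands, was at 14.3 against 9.20 CPM in NOF009, 13.4 against 5.44 CPM in LAF007, 9.29 against 6.84 CPM in WAF014 and 7.77 against 8.51 CPM in MAF006. It was higher with estradiol in 3 of 4 queens (log2 fold change 0.57, SE 0.38, edgeR p = 0.167). In nonbreeders it was higher in 6 of 6 animals, with a log2 fold change of 0.97 (SE 0.21, edgeR unadjusted p = 0.000556). That p was the smallest of the 11047 genes in nonbreeders, where 0 genes passed an FDR of 10%. The difference between the responses of queens and nonbreeders was -0.38 (SE 0.34, p = 0.284 in the same edgeR fit). That difference is within its error.

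Genes of bone resorption had a median of 0.40 over the 7 listed, with 5 above 0 and 0 at an unadjusted p under 0.05. Over all genes tested, 46.9% were above 0. The queens were opposed, with medians of 1.31 in MAF006 and 0.98 in LAF007 against -0.17 in NOF009 and -0.35 in WAF014. CTSK, the osteoclast protease that degrades bone collagen, was at 216.6 CPM with estradiol and 153.8 CPM with vehicle in MAF006, 598 and 752 CPM in NOF009, 431 and 456 CPM in LAF007, and 505 and 541 CPM in WAF014. It was lower in 3 of 4 queens by at most 0.33 on the log2 scale. ADAM8, a membrane protease of osteoclast precursors, was at 52.1 against 2.78 CPM in LAF007 and 10.1 against 23.4 CPM in WAF014. The study's own term for bone resorption, which was picked on these samples and is not independent evidence, had 5 tested genes, 3 above 0, with a median of 0.13. Its term for positive regulation of bone resorption had 4 genes and a median of -0.07, and its superoxide term 4 genes and a median of 0.04.

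Blood cell genes, like the tested genes as a whole, differed most between the treatments in MAF006 and LAF007. At least 2-fold differences were found for 13 of the 22 leukocyte markers in MAF006 (10 higher and 3 lower) and 9 in LAF007 (6 higher and 3 lower), and for 0 in NOF009 and WAF014. Over all genes tested, the shares with such differences were 33.8% in MAF006, 32.4% in LAF007, 1.40% in NOF009 and 4.64% in WAF014. By fitted change, 13 of the markers were above 0 and 9 below (median 0.07), where 46.9% of all genes tested were above 0. Only 1 marker, PARVG, had an unadjusted p under 0.05. The summed level with estradiol and vehicle was 4858 and 3545 CPM in MAF006, 3288 and 3572 CPM in NOF009, 406 and 383 CPM in LAF007, and 810 and 742 CPM in WAF014. PARVG, an actin-linked adhesion protein of hematopoietic cells, was at 126.8 against 23.2 CPM in MAF006 and 21.4 against 16.1 CPM in NOF009, while in LAF007 (0.330 and 0.107 CPM) and WAF014 (0.512 and 0.171 CPM) it was scarcely detected. Its log2 fold change was 1.46 (SE 0.48, edgeR p = 0.0127, adjusted p = 0.975). LAPTM5, a lysosomal protein of blood cells and the most abundant marker of the list in MAF006, was at 2145 against 886 CPM there and at 1204 against 1213 CPM in NOF009. The part of blood-derived cells in the differences of MAF006 was not tested. Of 15 inflammatory and interferon genes, 9 were above 0 (median 0.19) and 0 had an unadjusted p under 0.05. C3, a complement component, was at 136.2 against 25.8 CPM in MAF006 and 13.8 against 6.19 CPM in LAF007, and at 170.2 against 195.9 CPM in NOF009. For the 4 endothelial markers the median was -0.40 with 1 gene above 0 and 0 at an unadjusted p under 0.05.

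Proliferation genes divided the queens evenly. Of 24 cell cycle genes, 20 were higher with estradiol in NOF009 (median 0.19) and 21 in WAF014 (median 0.29), compared with 7 in MAF006 (median -0.76) and 3 in LAF007 (median -0.79). Over all genes, the share higher with estradiol was 49.9% in NOF009, 57.1% in WAF014, 50.8% in MAF006 and 43.4% in LAF007, with medians of -0.00090, 0.08, 0.02 and -0.19. The fitted median of the cell cycle genes was -0.20, with 6 of them above 0, where 46.9% of all genes tested were. Of these cell cycle genes, 0 had an unadjusted p under 0.05. MCM6, a subunit of the replicative helicase, was at 242 against 194 CPM in NOF009 and 227 against 186 CPM in WAF014, but at 282 against 573 CPM in MAF006 and 122 against 247 CPM in LAF007. CDK1, the kinase that drives mitosis, was at 160 against 214 CPM in MAF006, 84.8 against 80.1 CPM in NOF009, 85.4 against 129 CPM in LAF007 and 90.5 against 79.0 CPM in WAF014. Lipid and adipocyte genes (8 tested, median 0.03) and contractile and cytoskeletal genes (13 tested, median 0.23) had 0 genes at an unadjusted p under 0.05. PPARG, the regulator of fat cell formation, was higher in all 4 queens, but by only 0.0029 to 0.09 on the log2 scale outside MAF006 (0.76).

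**Figure D5:**
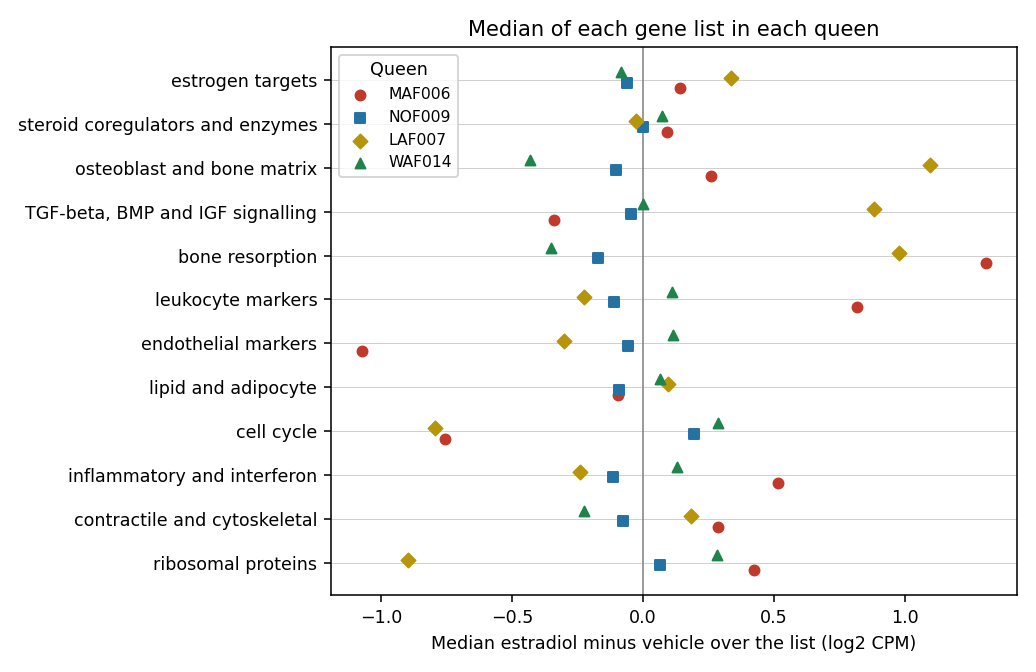
Median of estradiol minus vehicle (log2 CPM) over the tested genes of 12 lists, 1 row per list and 1 symbol per queen. Medians of NOF009 run from -0.17 (bone resorption) to 0.19 (cell cycle). The cell cycle list lies below 0 in MAF006 and LAF007 (-0.76 and -0.79) and above 0 in NOF009 and WAF014 (0.19 and 0.29).

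Among symbol genes as a whole, the 10 with the smallest p above 0 had log2 fold changes from 0.61 to 1.46 and unadjusted p-values from edgeR of 0.0127 to 0.133. They were PARVG, the histone gene H2AFJ, the lipid antigen presenter CD1D, the mitochondrial mRNA-binding factor CLUH, C3, the ubiquitin ligase SYVN1, the leukocyte actin regulator CORO1A, the spindle protein HAUS5, the nucleotidase NT5C3B and the bacterial sensor NOD2. Of these 10, 3 were higher in 4 of 4 queens (PARVG, CD1D and NT5C3B), and the largest difference was in MAF006 for 6 and in LAF007 for 4. The 10 with the smallest p below 0 ran from -0.56 to -1.23, with edgeR unadjusted p-values of 0.0585 to 0.122. They were PHEX, the microRNA gene MIR214, the endosome tether EEA1, the phosphatase subunit PPP2R2B, the complement receptor C3AR1, FILIP1L, TMEM68, DSEL, UACA and the PI3-kinase subunit PIK3CA. All 10 were lower in MAF006 and LAF007, 9 were lower in NOF009 and 1 (PHEX) in WAF014. EEA1 was typical, at 32.0 against 123 CPM in MAF006, 70.1 against 79.5 CPM in NOF009, 25.4 against 77.2 CPM in LAF007 and 61.8 against 51.1 CPM in WAF014.

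Whether queens responded differently from nonbreeders was tested in a fit to the 20 paired long bone libraries of 10 animals. No gene passed an FDR of 10% (0%), the smallest adjusted p was 0.947, and 28 genes (0.253%) had an unadjusted p under 0.05. Among symbol genes the smallest p belonged to PHEX, whose response was lower in queens by 1.45 on the log2 scale (difference -1.45, SE 0.46, edgeR p = 0.00835, adjusted p = 0.947). It was lower with estradiol in 4 of 4 queens and higher in 5 of 6 nonbreeders, in which its log2 fold change was 0.51 (SE 0.29). ANGPT2, a ligand that loosens blood vessels, was also lower in 4 of 4 queens, at 6.86 against 25.5 CPM in MAF006, 2.49 against 3.38 CPM in NOF009, 3.19 against 3.42 CPM in LAF007 and 7.42 against 9.75 CPM in WAF014. Its difference from nonbreeders was -1.13 (SE 0.48, edgeR p = 0.0376, adjusted p = 0.947). SHTN1, a cytoskeletal protein of growing axons, was lower in 3 of 4 queens and differed by -0.95 (SE 0.42, edgeR p = 0.0415, adjusted p = 0.947).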

How the data were processed

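RNA-Seq libraries were made by the authors from polyadenylated RNA with a low-input kit. Per the study's methods, reads were trimmed with cutadapt 2.3, aligned to the assembly DMR_v1.0 with STAR, restricted to unique alignments and counted on Ensembl genes with HTSeq. The deposited values are raw counts, without normalization. A strand setting is not given in the sources used here, so overlapping and antisense genes (MIR214 included) and near-identical copies are uncertain. All 47 columns could be mapped to samples.

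The gene filter, TMM normalization and quasi-likelihood test were run in edgeR 4.0.16 (R 4.3.3), with treatment and animal in the model of the 8 libraries. The comparison with nonbreeders used 20 libraries of 10 animals, with treatment by status as the tested term. Tests were two-sided with Benjamini-Hochberg adjustment over all genes tested. The test of the 8 libraries was also run on simulated counts drawn independently for each gene. Those counts lack the differences shared across genes in the real pairs, so the run does not show how the test behaves with them. Per-library levels are CPM with TMM factors, and per-queen differences are on the log2 scale with a prior count of 2, which understates changes of low genes. A p from 4 sign-flipped pairs cannot be under 0.125, so no exact test was made for single genes. DESeq2 1.42.0 and limma 3.58.1 served as alternatives, and scipy 1.17.1 gave the permutation test. The number of tested genes without a count was 119 and 129 in MAF006 and 7 to 44 in the other libraries. The vehicle libraries of MAF006 and NOF009, with 129 and 8 such genes, held 6355774 and 6867297 counts.

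Pairing comes from the animal: after removal of treatment means, the 2 libraries of a queen correlated at 0.76 in MAF006 and NOF009, but at 0.45 in LAF007 and 0.47 in WAF014. In these last queens each culture correlated more with the other queen's opposite culture (0.80 and 0.75) than with its own pair. No 2 libraries of the same treatment, and no 2 of the same queen, agreed within sampling noise (chi-squared per degree of freedom of at least 5.69). Libraries of different queens and opposite treatments were not compared in this way.

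Symbols came from the identifier and name columns of the study's table of tested genes, of which 1594 rows were used. The reference gene table matched 0 identifiers. The fold changes, p-values and cell-type proportions in the study's tables were not used. Named genes were the 10 symbol genes with the smallest p in each direction, at most 2 without a symbol in each direction, the 3 symbol genes with the smallest p against nonbreeders, and members of 12 gene lists. ENSFDAG00000002388 and ENSFDAG00000013039 were added after their values were seen. The members and lists were chosen with earlier results of these data known. 2 listed target genes are not reported here and were left out of their list.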

Additional observations from a re-analysis of the deposited data

Results flagged for a closer look

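In 3 of 44 groups of 4 per-queen values examined, 1 queen stood apart from the other 3. Chance marks about 1 in 20 only where groups are picked without regard to their values. Several genes here were picked by a small p or after their values were seen, so the count cannot be set against that rate. For NT5C3B the difference between estradiol and vehicle was 1.82 on the log2 scale in MAF006, against 0.22 to 0.45 in the others. For ENSFDAG00000013039 it was 6.81 in MAF006, where the level was 25.6 CPM with estradiol and 0 with vehicle. The gene had no count in any culture of LAF007 and WAF014. For the study's bone resorption term the median was 1.58 in LAF007, against -0.32 to -0.15 in the others.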

How the results depend on the processing

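Of the main counts of 0, 0 and 42 genes (FDR of 10%, FDR of 20% and unadjusted p under 0.05), edgeR with DESeq2's size factors (39 at unadjusted p) and limma voom with animal (48) stayed within 1.5 times. The other settings gave, in the same order, 3, 4 and 430 without a filter on low counts, 0, 0 and 81 with filterByExpr, 1, 2 and 95 with DESeq2's test, 0, 0 and 68 with 10 animals in 1 fit, and 0, 0 and 299 with limma voom on all 47 libraries. Without the replicate block, that is without the animal pairing, the counts were 0, 0 and 15. Leaving out 1 queen gave 0 to 14, 0 to 134 and 13 to 1162. Added after seeing the data, library quality weights gave 5, 12 and 597, MAF006 and NOF009 alone 2, 2 and 223, and NOF009 and WAF014 alone 210, 325 and 982. Either fit to 2 queens leaves 1 residual degree of freedom. NOF009 and WAF014 were picked for their small differences between cultures, so the number called there supports nothing about a response. The cause of these shifts was not tested. The gene called without NOF009 was ENSFDAG00000013039 (edgeR adjusted p = 0.0129). With NOF009 and WAF014 alone, 9 named genes changed sign: C3 (-0.14), SYVN1 (-0.16), CORO1A (-0.041), HAUS5 (-0.29), NOD2 (-0.14), EEA1 (0.028), PPP2R2B (0.0037), TMEM68 (0.024) and DSEL (0.18). With quality weights C3 (-0.065) and SYVN1 (-0.024) did. The count of 0 genes differing from nonbreeders was 0 in every alternative run, and the number of genes with 1 sign in all 4 queens was 410, 412 with a prior count of 0.5 and 440 without TMM factors. Without TMM factors, 2.05% to 5.94% of genes per queen changed sign. With factors from 20 libraries, the median over all genes in LAF007 was -0.04 in place of -0.19, LAF007 had 5361 genes higher with estradiol in place of 4797 and 712 at least 2-fold lower in place of 1231, and WAF014 had 5915 higher in place of 6305.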

Other observations

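Of the 4 genes under the study's superoxide term, ENSFDAG00000008203 had the highest levels. It was at 925 against 839 CPM with estradiol and vehicle in MAF006, 1808 against 2201 CPM in NOF009, 146 against 223 CPM in LAF007 and 335 against 277 CPM in WAF014. Its level varied more between the queens than between the 2 cultures of any of them.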
